A study of Anser cygnoides with 4 samples.

Results

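Cycling cells that carry MYOG were followed here among the cells of goose embryonic leg muscle. MYOG (myogenin) is the transcription factor that marks commitment of a myoblast to differentiation, and MKI67 (the Ki-67 antigen) and TOP2A (topoisomerase II alpha, which untangles DNA before division) mark proliferating cells. A barcode was a cycling MYOG cell when it held at least 2 UMIs of MYOG, at most 1 UMI of PAX7 and at least 3 of the 6 genes MKI67, TOP2A, CDK1, CCNB2, PLK1 and TPX2. A UMI (unique molecular identifier) stands for 1 captured RNA molecule. The rule found 1165 cycling MYOG cells among 49503 barcodes that held 300 to 6500 genes and 1000 to 50000 UMIs. These 8 genes chose the cells, so their values are given as a description only.

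The data are 4 droplet libraries of cells enriched for skeletal muscle satellite cells from the leg muscle of female Zhedong White goose embryos, with 1 library for day 13 of incubation (E13), 1 for day 15 (E15), 1 for day 18 (E18) and 1 for day 23 (E23). The embryos of a library were pooled, 4 according to the methods of the study and 3 according to the sample labels, with no treatment and no altered allele. The cells were enriched by letting fibroblasts attach in differential plating, then frozen and thawed before capture, which bounds what the libraries say of the muscle itself. With 1 library at each stage, stages were not tested against each other. The libraries held 11261 to 16077 barcodes with a median of 8402.5 to 11028 UMIs in the barcodes kept, and 8 of the cycling MYOG cells had a barcode sequence that also occurred in another library. The highest mitochondrial share in any barcode was 5.85%.

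In vertebrate muscle, PAX7 marks satellite cells and other muscle progenitors, MYF5 and MYOD1 mark myoblasts, and MYOG follows MYOD1 as cells begin to differentiate. Myoblasts usually leave the cell cycle at this step, with cyclin-dependent kinase inhibitors such as CDKN1A, CDKN1B and CDKN1C and the retinoblastoma protein RB1 holding the exit, and only then build sarcomeres and fuse. A cell with MYOG and with genes of mitosis therefore joins features that are usually found apart, and a droplet that captured a cycling and a differentiating cell would join them too.

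Cycling MYOG cells were 11.02% of the cells with MYOG in E13 (326 of 2958, 95% exact binomial interval 9.91 to 12.2%), 13.1% in E15 (471 of 3587, 12.04 to 14.3%), 13.7% in E18 (315 of 2301, 12.3 to 15.2%) and 6.34% in E23 (53 of 836, 4.78 to 8.21%). The interval in E23 lay below those of the other libraries, but it covers counting error only and not the spread between pools of embryos. Among all barcodes kept, the share was 2.05% in E13, 4.11% in E15, 2.80% in E18 and 0.484% in E23. When every barcode was first thinned to 4000 UMIs, the share among cells with MYOG was 7.002% in E13 (5.93 to 8.20%), 14.7% in E15 (13.6 to 15.8%), 10.7% in E18 (9.42 to 12.1%) and 4.61% in E23 (3.08 to 6.59%). The intervals in E13 and E23 then overlapped. The PAX7 limit was applied after thinning, so barcodes above it as deposited could enter, and E15 then held 579 of 3952.

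All 6 cycling genes were detected in 438 cycling MYOG cells, 5 in 265, 4 in 231 and 3 in 231. Just outside the rule stood 471 cells with MYOG in which 2 of the genes were detected, 667 cycling cells with 1 UMI of MYOG and 352 cycling cells with 2 UMIs of PAX7. Just inside it, 178 cells held exactly 2 UMIs of MYOG and 450 held 1 UMI of PAX7. CDK1, the kinase that drives entry into mitosis, was detected in 94.2% of the cycling MYOG cells, TOP2A in 89.4% and MKI67 in 88.9%. CCNB2 (a cyclin partner of CDK1), PLK1 (a mitotic kinase) and TPX2 (a spindle assembly factor) were each detected in 67.2 to 70.6%.

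Further classes of the same libraries served for comparison. Non-cycling MYOG cells met the same limits on MYOG and PAX7 with none of the 6 genes detected (5962 barcodes), and 2555 cells with MYOG in which 1 or 2 of the genes were detected lay between. Cycling PAX7 cells held at least 2 UMIs of PAX7, at most 1 of MYOG and at least 3 of the 6 genes (4803 barcodes). The level of MYOG, as CPM (the UMIs of a gene in the summed cells of a class and library, scaled to a total of 1000000 UMIs), was 371 in E13, 1161 in E15, 563 in E18 and 314 in E23 in cycling MYOG cells, and 678, 1404, 1178 and 781 in non-cycling MYOG cells. PAX7 was 25.2 to 39.5 CPM in the cycling and 25.6 to 40.4 CPM in the non-cycling MYOG cells, against 327 to 618 CPM in cycling PAX7 cells. As CPM, MYOG was thus lower in the cycling than in the non-cycling cells of every library, while PAX7 was about as low in these classes. The median per cell was 4, 12, 6 and 3 UMIs of MYOG in cycling and 4, 11, 8 and 4 in non-cycling MYOG cells of E13, E15, E18 and E23. A limit of 2 UMIs admits lower CPM in cells with more UMIs, and the cycling MYOG cells held more, so nothing further is read from these levels.

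The number of UMIs was read first, because a droplet with a pair of cells holds the RNA of both. The median cycling MYOG cell held 10691.5 UMIs in E13, 10196 in E15, 11322 in E18 and 11022 in E23. Non-cycling MYOG cells had medians of 6793, 8878, 7670 and 5635 UMIs, and cycling PAX7 cells of 13675, 15248, 15623 and 15368 UMIs. Cycling MYOG cells therefore held 1.57, 1.15, 1.48 and 1.96 times the UMIs of non-cycling MYOG cells, and 0.782, 0.669, 0.725 and 0.717 times those of cycling PAX7 cells. The rule itself can raise the first ratios, since barcodes with more UMIs meet a limit of detection more easily. Cells with MYOG and 1 or 2 of the 6 genes lay between, at medians of 7490, 9299, 8383 and 6898.5 UMIs. The part of the rule in these ratios was not tested.

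A droplet that joined a median non-cycling MYOG cell and a median cycling PAX7 cell would hold 20468 UMIs in E13, 24126 in E15, 23293 in E18 and 21003 in E23. Such a droplet would also hold at least 2 UMIs of PAX7 and so miss the rule, which makes the number a scale only. Pairs with a cycling cell of at most 1 UMI of PAX7, which could meet the rule, were not set against UMI numbers. Of the 1165 cycling MYOG cells, 113 (9.70%) reached that number, 9.20% in E13, 7.22% in E15, 13.7% in E18 and 11.3% in E23. Among cycling PAX7 cells the share that reached it was 11.8, 6.72, 10.3 and 14.9%, and among non-cycling MYOG cells it was 0.324 to 0.745%. At the other end, 286 cycling MYOG cells (24.5%) held no more UMIs than the median non-cycling MYOG cell of their library. UMI numbers alone cannot tell a small doublet from a large cell. By the doublet score of scrublet, 30.1, 11.3, 23.8 and 35.8% of the cycling MYOG cells of E13, E15, E18 and E23 ranked among the highest scores of their library. The share was 24.4, 18.2, 19.7 and 16.9% in cycling PAX7 cells, so that it was lower in cycling MYOG cells only in E15. It was 2.10 to 8.60% in non-cycling MYOG cells. Over all barcodes kept, the highest scores were 2041 of 15872 in E13, 1079 of 11449 in E15, 1036 of 11236 in E18 and 986 of 10946 in E23.

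**Figure D1:**
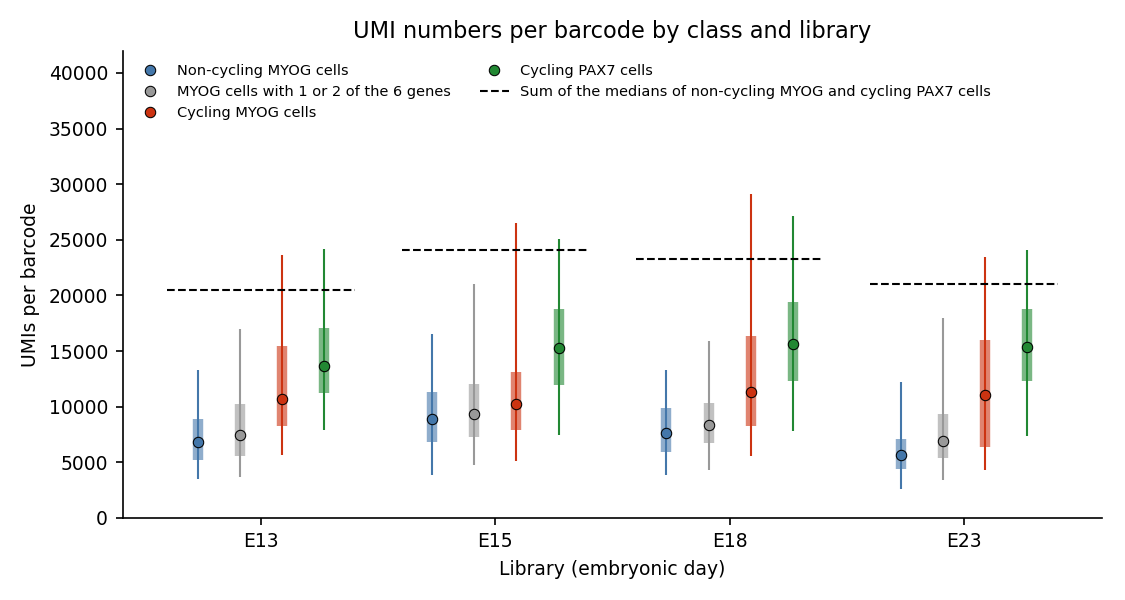
UMIs per barcode (linear axis) in each library for non-cycling MYOG cells, MYOG cells with 1 or 2 of the 6 genes, cycling MYOG cells and cycling PAX7 cells. Points are medians, thick bars span the quartiles, thin lines the 5th to 95th percentile, and dashed lines the sum of the medians of non-cycling MYOG and cycling PAX7 cells. The medians of cycling MYOG cells (10196 to 11322 UMIs) lie between those of the other classes and below the dashed lines.

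The muscle genes of the same barcodes give a second view. ACTC1, the alpha-actin of early muscle, had a median of 8 UMIs per cycling MYOG cell in E13, 12 in E15, 6 in E18 and 6 in E23, against 25, 79, 47 and 19 UMIs in non-cycling MYOG cells. ACTC1 UMIs lay below the lower quartile of non-cycling MYOG cells in 774 of the cycling MYOG cells (66.4%) and above their median in 136 (11.7%). MYOD1 UMIs gave the opposite order, with a median of 10, 23, 16 and 8 UMIs per cycling MYOG cell, 5, 11, 9 and 6 per non-cycling MYOG cell, and 9, 8, 3 and 2 per cycling PAX7 cell in E13, E15, E18 and E23. These medians are not scaled, and cycling MYOG cells held more UMIs than non-cycling ones. As CPM, MYOD1 was at 1016, 2064, 1320.2 and 728 in cycling and 942, 1370.1, 1278 and 1202 in non-cycling MYOG cells, so the order turned in E23. At 4000 UMIs, cycling MYOG cells held a median of 2015 to 2214 genes, non-cycling MYOG cells 1921 to 2068 and cycling PAX7 cells 2031 to 2242.

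The share of cycling barcodes fell as ACTC1 rose. After thinning to 4000 UMIs, the E15 library held at least 3 of the 6 genes in 45.1% of cells with MYOG and 0 to 4 UMIs of ACTC1 (284 of 630), in 22.8% with 5 to 19 UMIs (242 of 1060), in 3.89% with 20 to 49 UMIs (51 of 1310) and in 0.235% with 50 to 99 UMIs (2 of 852). The same shares were 30.4, 10.7, 1.74 and 0% in E18, 16.7, 5.97, 1.76 and 0% in E13, and 10.5, 4.63, 0 and 0% in E23. Where the share was 0 the limits of the exact interval still allowed up to 0.916% in E18 (0 of 401), 2.86% in E13 (0 of 127), 2.28% in E23 for 20 to 49 UMIs (0 of 160) and 14.2% in E23 for 50 to 99 UMIs (0 of 24). In each library the share was highest where ACTC1 was lowest. The limits on MYOG, PAX7 and the 6 genes were applied after thinning here, so barcodes above the PAX7 limit as deposited could enter. As deposited, the E15 shares were 39.1% (133 of 340), 29.3, 16.3 and 5.84% in the same bins. At 0 to 4 UMIs of ACTC1 the deposited share was 22.4% in E13, 34.1% in E18 and 14.2% in E23, again the highest of each library.

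The cycling share is also given along MYOG itself in cells with at least 2 UMIs of MYOD1, as a description, since MYOG and the 6 genes are those of the rule. At E15 the cycling share was 23.1% with no UMI of MYOG, 18.1% at 3 to 4 UMIs and 11.7% at 10 to 19 UMIs, and in E18 it was 26.3, 14.0 and 2.40%. At E23 it was 13.6% with no UMI of MYOG and 4.17% at 3 to 4 UMIs. At E13 it was 9.11% with none, 10.7% at 1 UMI, 10.1% at 3 to 4 UMIs and 3.60% at 5 to 9 UMIs. The lower MYOG bins of E13 thus showed no fall. As deposited, the E15 shares at 0, 3 to 4 and 10 to 19 UMIs were 13.0, 12.4 and 14.4%. The fall in E15 was thus seen only after thinning. In the same bins the E18 shares as deposited were 24.1, 15.3 and 10.1%, and those of E13 were 10.5, 12.7 and 7.29%. In E23 they were 15.0% at 0 and 7.23% at 3 to 4 UMIs.

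**Figure D2:**
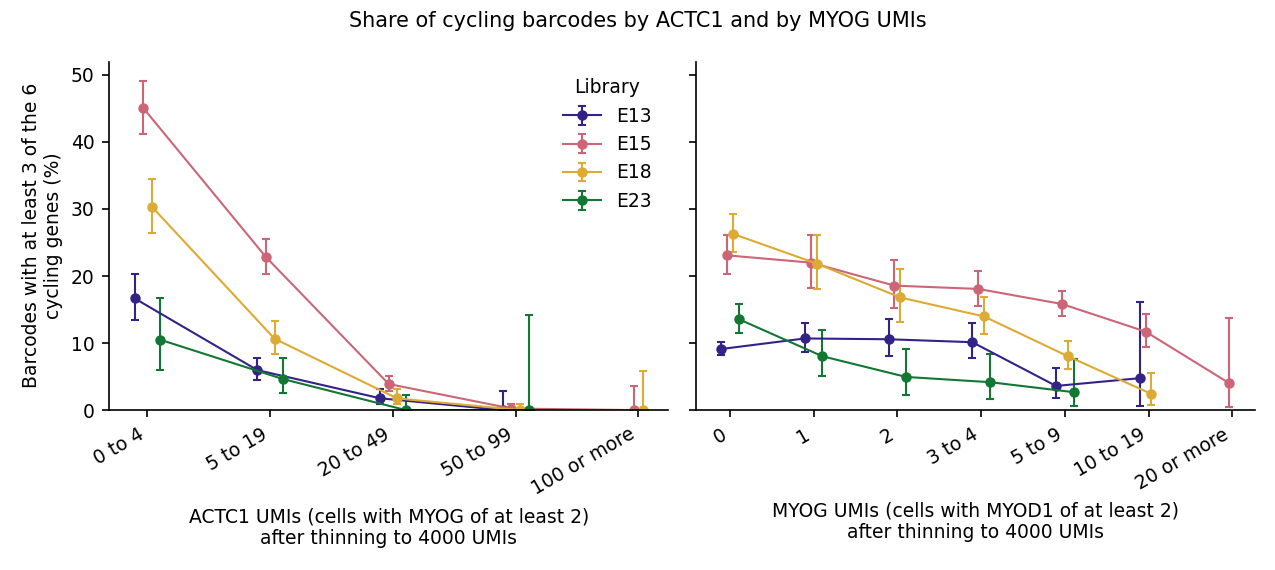
Percent of barcodes with at least 3 of the 6 cycling genes after thinning to 4000 UMIs, by ACTC1 UMIs in cells with MYOG (left) and by MYOG UMIs in cells with MYOD1 (right). Points are single libraries (colors), bars are 95% exact binomial intervals, and bins with under 20 cells are left out. At E15 the share goes from 45.1% at 0 to 4 ACTC1 UMIs to 3.89% at 20 to 49.

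UMIs of MYOG also occurred in barcodes with markers of other cell types, where RNA free in the droplet and a second captured cell cannot be told apart. Barcodes of fibro-adipogenic progenitors (FAPs, the connective tissue progenitors of muscle) were taken as those with at least 3 UMIs of DCN, at least 3 of COL6A3 and at most 1 of MYOD1. A UMI of MYOD1 was found in 9.08 to 13.0% of them between libraries. The classes of MYOG cells held medians of 5 to 23 UMIs of MYOD1. The limit on MYOD1 thus leaves out many barcodes that joined a FAP and a MYOG cell, and the FAP shares below can understate such pairs. Among cycling FAP barcodes 1.73% held at least 2 UMIs of MYOG (68 of 3932, 0.978 to 5.29% between libraries), at a median of 19486.5 UMIs. The share was 1.85% in FAP barcodes with none of the 6 genes (median 12175 UMIs) and 5.38% in immune barcodes taken by PTPRC (25 of 465, median 6665 UMIs). FAP and immune barcodes were not kept apart from the classes of MYOG cells. Those with at least 2 UMIs of MYOG and at most 1 of PAX7 are counted in both. The shares are thus no separate background, and the overlap was not counted. Of the cycling MYOG cells 867 held at least 4 UMIs of MYOG, where the share of cycling cells was 10.3% in E13, 13.1% in E15, 12.9% in E18 and 4.62% in E23.

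FAP markers moved with the cycling MYOG cells. The 13 FAP markers summed to 1635 to 3117 CPM in cycling MYOG cells, 276 to 801 CPM in non-cycling MYOG cells and 2035 to 2567 CPM in cycling PAX7 cells. DCN (decorin) was at 268, 221, 478 and 529 CPM in cycling and 75.2, 77.9, 33.1 and 75.3 CPM in non-cycling MYOG cells of E13, E15, E18 and E23. The signal was uneven, since the 10% of cycling MYOG cells with the most FAP UMIs held 69.8% of them. That share was 76.0% in non-cycling MYOG cells and 34.6% in cycling PAX7 cells. In 188 cycling MYOG cells (16.1%) DCN and COL6A3 each had at least 3 UMIs, and these held a median of 23048.5 UMIs. The 698 cells (59.9%) with neither gene held a median of 9182.5 UMIs. Each gene had at least 3 UMIs in 1.63% of non-cycling MYOG cells and in 22.7% of cycling PAX7 cells. Cycling MYOG cells with 2 to 3 UMIs of MYOG in E15 carried COL1A1 at 1289 CPM, and those with 10 or more carried 147 CPM. The tests below were also run after leaving out, from every class, barcodes with 2 or more UMIs in total of DCN, COL6A3, PTPRC and PECAM1, which kept 845 cycling MYOG cells.

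Markers of other cells were low. The 6 immune markers summed to 4.06 to 11.1 CPM in cycling MYOG cells, the 6 Schwann markers to 1.58 to 15.1 CPM and the 5 cartilage markers to 28.0 to 96.9 CPM. The 7 endothelial markers summed to 29.2 to 32.4 CPM in E13, E15 and E18 and to 150.0 CPM in E23. At E23 the sum was 44.9 CPM in non-cycling MYOG cells and 146 CPM in cycling PAX7 cells. ERG held most of it, at 27.2, 29.5, 28.0 and 144 CPM in cycling and 10.8, 4.97, 7.01 and 26.0 CPM in non-cycling MYOG cells. In cycling MYOG cells KDR and VWF were at 0 in every library, and PECAM1, CDH5, TIE1 and EGFL7 were at most 3.49 CPM. Stress genes were uneven between libraries, at 3608 CPM in cycling and 6485 CPM in non-cycling MYOG cells of E13 and at 230.0 to 965 and 374 to 1308 CPM in those of the other libraries. In the test that follows, 9 of 12 stress genes were lower in cycling MYOG cells (5 without E13), and the part of this difference in the other results was not tested.

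Genes were compared on the sums of the classes in the 4 libraries, with the library as a block (edgeR quasi-likelihood test, Benjamini-Hochberg adjustment over 13244 genes). The comparisons with non-cycling MYOG cells and with cycling PAX7 cells share the sums of the cycling MYOG cells. Against non-cycling MYOG cells 2335 genes (17.6% of those tested) were higher and 2835 (21.4%) lower in cycling MYOG cells, 39.0% in either direction. Against cycling PAX7 cells 984 (7.43%) were higher and 891 (6.73%) lower, 14.2% in either direction. These counts include the 8 genes of the rule, 6 higher and 1 lower in the first comparison and 3 higher and 1 lower in the second, from which nothing is read. Without the scaling between sums (TMM) the first split was 3492 higher and 1719 lower, and the median gene moved by 0.20 (log2), so small differences from non-cycling MYOG cells depend on the scaling. Values below are log2 differences with standard errors derived from the test statistic of the edgeR fit to the 3 classes in 4 libraries.

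Genes of DNA replication and of mitosis were detected in the cycling MYOG cells of every library. Since the cells were chosen by 6 genes that move with these lists, their difference from non-cycling MYOG cells is a description: 29 of 30 genes of S phase and replication were higher (median 2.20) and so were 38 of 38 genes of G2 and mitosis (median 5.51). PCNA, the clamp of the replication fork, was at 1085, 859, 859.5 and 546 CPM in the cycling and 470.3, 194, 185 and 223 CPM in the non-cycling MYOG cells of E13, E15, E18 and E23. CCNA2 (cyclin A2) was at 115 to 199 CPM in the former and 2.28 to 4.57 CPM in the latter. The 4 libraries thus did not overlap for either gene. Outside the lists, the largest differences belonged to CEP55 (abscission of daughter cells, 6.62), MELK (a mitotic kinase, 6.47), INCENP (the chromosomal passenger complex, 6.28), PTTG1 (securin, 6.28) and KPNA2 (an importin, 6.03).

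Against cycling PAX7 cells the comparison of these lists is less bound to the rule, because the same 6 genes chose that class. The limit on the 6 genes was equal, but cycling PAX7 cells held more UMIs, with medians of 13675 to 15623 against 10196 to 11322. A limit of detection admits lower CPM in cells with more UMIs, so differences in genes that move with the 6 are a description. The part of this in the values below was not tested. Of 30 replication genes 0 were higher and 1 lower, with a median of -0.03. Of 38 genes of mitosis 2 were higher and 0 lower, with a median of 0.20. Over all genes tested the median was -0.02, and 7.43% were higher and 6.73% lower. PCNA was 1008, 847, 659.6 and 592 CPM and CCNA2 was 102, 147, 144 and 182 CPM in cycling PAX7 cells, so that both overlapped the cycling MYOG cells. CENPF, a kinetochore protein of late G2, was higher in cycling MYOG cells by 1.36 ± 0.33 (edgeR adjusted p = 0.0255), at 54.6 to 150.4 against 16.0 to 53.4 CPM. RACGAP1, which sets the cleavage plane, was higher by 0.85 ± 0.20 (edgeR adjusted p = 0.0215). RRM2, the ribonucleotide reductase subunit of S phase, was lower by 0.70 ± 0.17 (log2 difference -0.70, edgeR adjusted p = 0.0248). Each of these calls was lost without some libraries, CENPF without E15 (1.25, adjusted p = 0.129) or E23 (1.25, adjusted p = 0.113), RACGAP1 without E15 (0.76, adjusted p = 0.136) or E18 (1.01, adjusted p = 0.0502), and RRM2 without E18 (-0.76, adjusted p = 0.0922) or E23 (-0.64, adjusted p = 0.113), all by edgeR.

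Within single barcodes thinned to 4000 UMIs, UMIs of the mitosis list outnumbered those of the replication list in 50.0% of cycling MYOG cells in E13, 61.9% in E15, 60.1% in E18 and 66.7% in E23. In cycling PAX7 cells this held for 31.6, 45.5, 61.1 and 49.1%, and in non-cycling MYOG cells for 9.80 to 15.0%. The cycling MYOG cells were above the cycling PAX7 cells in E13, E15 and E23 and just below them in E18. Both classes were chosen before thinning, at unequal UMI numbers, and the part of this in the shares was not tested.

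Sarcomere genes showed the widest contrast in muscle identity. In cycling MYOG cells 30 of 34 were lower and 0 higher than in non-cycling MYOG cells (median -2.92), and 26 were higher and 0 lower than in cycling PAX7 cells (median 2.92). The rule parted cycling MYOG cells from cycling PAX7 cells by MYOG and PAX7, and genes of differentiation move with MYOG. Differences between these classes in muscle, progenitor and Notch genes, here and below, are therefore a description. ACTC1 was at 1328, 2080.4, 1471 and 917 CPM in cycling MYOG cells of E13, E15, E18 and E23, at 5171, 11032, 9779 and 4126 CPM in non-cycling MYOG cells and at 146, 175, 56.6 and 90.4 CPM in cycling PAX7 cells. The 3 classes did not overlap for ACTC1, which differed by -2.57 ± 0.31 from the former (edgeR adjusted p = 0.000198) and by 3.60 ± 0.32 from the latter (edgeR adjusted p = 0.000239). TNNC2, the calcium sensor of fast muscle, was at 763, 1089, 492 and 398 CPM in cycling MYOG cells, at 2032 to 5028 CPM in non-cycling MYOG cells and at 17.4 to 75.9 CPM in cycling PAX7 cells. MYH15 (a slow myosin heavy chain) stood at 8.22 to 27.5, 74.6 to 351 and 0.71 to 1.67 CPM in the 3 classes in the same order. MYH15 was also the sarcomere gene furthest below the non-cycling cells (-3.74 ± 0.46).

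The sarcomere genes were also compared in other selections of cells. Of the sarcomere genes 30 were lower where all cells had at least 4 UMIs of MYOG, 30 without the barcodes with markers of other cell types, 31 among barcodes of 6000 to 15000 UMIs and 31 where cycling MYOG cells above the median UMIs of non-cycling MYOG cells were left out. The difference from cycling PAX7 cells was called in 22, 22 and 15 genes in the last 3 settings, and MYH15 was no longer called in the last (2.67, edgeR adjusted p = 0.114). That last setting kept 44, 167, 69 and 6 cycling MYOG cells in E13, E15, E18 and E23, so its E23 sum rests on few cells. It also moved the median of all genes by -0.15 against non-cycling MYOG cells and by -0.11 against cycling PAX7 cells.

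RBM24 and ACTA2 were among the 4 genes of this list that were not called against non-cycling MYOG cells. RBM24, an RNA-binding protein of muscle splicing, was at 258, 623, 433 and 297 CPM in cycling MYOG cells, 233, 493, 542 and 558 CPM in non-cycling MYOG cells, and 30.7 to 67.1 CPM in cycling PAX7 cells. RBM24 was thus higher than in cycling PAX7 cells by 3.002 ± 0.37 (edgeR adjusted p = 0.0011), while its difference from non-cycling MYOG cells was -0.41 ± 0.34 (edgeR adjusted p = 0.372). ACTA2, the smooth muscle actin, differed from neither beyond the threshold (-0.39 ± 0.19 and -0.43 ± 0.19).

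**Figure D3:**
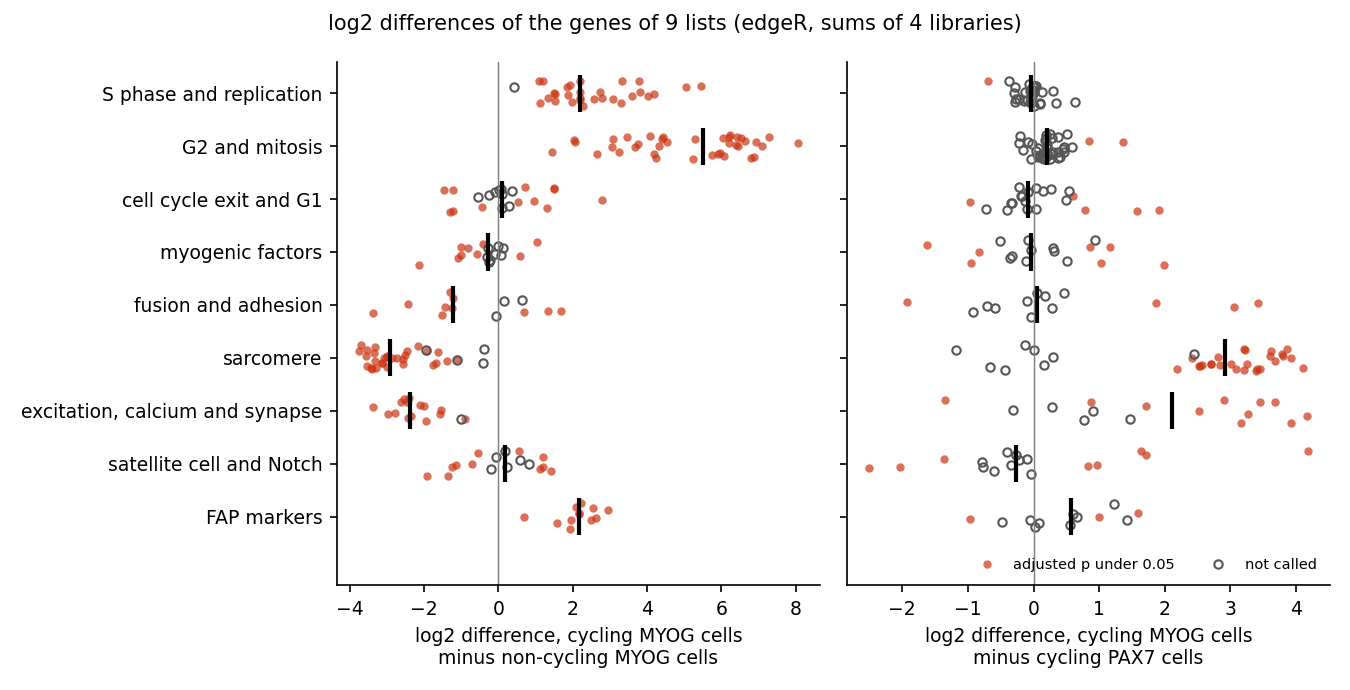
log2 difference of each tested gene of 9 lists between cycling MYOG cells and non-cycling MYOG cells (left) or cycling PAX7 cells (right). Each point is a gene, filled where the edgeR adjusted p is under 0.05, and black bars are list medians. The sarcomere median lies at -2.92 on the left and 2.92 on the right, and the replication and mitosis medians near 0 on the right (-0.03 and 0.20).

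Genes of excitation, calcium handling and the synapse followed the same order. Of 16 tested, 15 were lower and 0 higher than in non-cycling MYOG cells (median -2.38), and 10 were higher and 1 lower than in cycling PAX7 cells (median 2.12). CHRNA1, a subunit of the acetylcholine receptor, was at 54.3, 65.5, 23.8 and 44.2 CPM in cycling MYOG cells, at 125 to 172 CPM in non-cycling MYOG cells and at 1.29 to 9.36 CPM in cycling PAX7 cells, with no overlap. CACNA1S, the voltage sensor of muscle, differed by -2.10 ± 0.26 and 4.16 ± 0.34. MUSK, the agrin receptor kinase, was below both classes, at 3.50 to 9.47 CPM against 25.6 to 29.2 and 7.32 to 32.6 CPM. Its difference from cycling PAX7 cells (-1.34 ± 0.39, edgeR adjusted p = 0.0479) was no longer called without E13 (-1.63, adjusted p = 0.0631), E15 (-1.39, adjusted p = 0.139) or E18 (-1.29, adjusted p = 0.176), by edgeR.

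Genes of fusion divided. MYMK (myomaker, which drives myoblast fusion) was at 19.7, 43.3, 24.7 and 42.6 CPM in cycling MYOG cells, 76.0, 184, 171 and 156 CPM in non-cycling MYOG cells and 2.71 to 5.00 CPM in cycling PAX7 cells. TMEM182, a muscle membrane protein, differed by -3.38 ± 0.27 and 3.42 ± 0.33. Of 13 genes of fusion and adhesion tested, 7 were lower and 3 higher than in non-cycling MYOG cells, and 3 were higher and 1 lower than in cycling PAX7 cells. Over all genes tested 21.4% were lower and 17.6% higher in the first comparison, and 7.43% higher and 6.73% lower in the second. From list counts near these shares, here and below, nothing is read. The 3 higher than in non-cycling MYOG cells, BOC (1.68), JAM2 (1.33) and CDON (0.70), are adhesion and co-receptor proteins. TMEM182 turned to -0.33 against cycling PAX7 cells (edgeR adjusted p = 0.824) where cycling MYOG cells above the median UMIs of non-cycling MYOG cells were left out. That setting kept 6 cycling MYOG cells in E23, so little is read from the turn.

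MYOD1, which opens the muscle programme, did not pass the test against non-cycling MYOG cells. It was at 1016, 2064, 1320.2 and 728 CPM in cycling MYOG cells of E13, E15, E18 and E23, at 942, 1370.1, 1278 and 1202 CPM in non-cycling MYOG cells and at 817, 862, 376 and 255 CPM in cycling PAX7 cells. The difference from non-cycling MYOG cells was -0.23 ± 0.30 (edgeR adjusted p = 0.585) and its direction turned in several settings, to 0.09 without E23, to 0.09 after thinning and to 0.35 without barcodes with markers of other cell types. MYOD1 was higher than in cycling PAX7 cells in 4 of 4 libraries by 1.17 ± 0.30 (edgeR adjusted p = 0.0314), a call that was lost without E15 (1.09, adjusted p = 0.135), E18 (0.97, adjusted p = 0.16) or E23 (1.10, adjusted p = 0.0585). MYF5 was at 87.7, 183, 132 and 111 CPM, against 104 to 168 and 150.3 to 214 CPM, and passed neither test.

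The later myogenic factors lay between the classes. MEF2C, a partner of MYOG in the activation of muscle genes, was at 195, 238, 201 and 392 CPM in cycling MYOG cells, 496, 1176, 858 and 1293 CPM in non-cycling MYOG cells and 30.3 to 85.9 CPM in cycling PAX7 cells, with no overlap. MEF2C differed by -2.13 ± 0.31 (edgeR adjusted p = 0.000639) and 1.98 ± 0.32 (edgeR adjusted p = 0.00371). MEF2D differed by -1.09 ± 0.10 and 1.02 ± 0.10. MYF6 (MRF4) was at 180.0 to 371 CPM against 332 to 476 and 94.4 to 143 CPM. MYF6 was lower than in non-cycling MYOG cells (-0.999 ± 0.17), though not past the threshold among barcodes of 6000 to 15000 UMIs (-0.50, edgeR adjusted p = 0.0529) or without barcodes with markers of other cell types (-0.51, edgeR adjusted p = 0.0555). It was higher than in cycling PAX7 cells (0.86 ± 0.17), though not without E15 (0.62, edgeR adjusted p = 0.0686).

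ID3 and ID1 are inhibitors of MYOD1. ID3, which withholds the partners that MYOD1 needs to bind DNA, was at 332, 504, 548 and 532 CPM in cycling MYOG cells of E13, E15, E18 and E23 and at 125, 192, 227 and 292 CPM in non-cycling MYOG cells, with no overlap (1.03 ± 0.11, edgeR adjusted p = 9.63e-05). In cycling PAX7 cells ID3 was at 395 to 788 CPM and the difference of -0.36 ± 0.11 stood at the threshold (edgeR adjusted p = 0.0506). ID1 was lower than in cycling PAX7 cells (-0.95 ± 0.19, edgeR adjusted p = 0.0118; without E15 -0.88, adjusted p = 0.0741, and without E18 -0.97, adjusted p = 0.0637) and differed by 0.14 ± 0.19 from non-cycling MYOG cells (edgeR adjusted p = 0.618). Of the 17 myogenic factors and inhibitors tested, 2 were higher and 7 lower than in non-cycling MYOG cells, and 4 were higher and 3 lower than in cycling PAX7 cells. All genes tested gave 17.6% higher and 21.4% lower in the first comparison, and 7.43% higher and 6.73% lower in the second.

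The inhibitors of cyclin-dependent kinases did not move together. The rule parted cycling from non-cycling MYOG cells by cell cycle genes, and other genes of cycle control can move with those. Differences between these classes in such genes, here and below, are therefore a description. CDKN1B (p27) was at 48.6, 59.9, 52.7 and 47.4 CPM in cycling MYOG cells of E13, E15, E18 and E23, at 86.8, 144, 127 and 99.4 CPM in non-cycling MYOG cells and at 36.2, 46.1, 47.3 and 42.9 CPM in cycling PAX7 cells. It was lower than in non-cycling MYOG cells with no overlap (-1.31 ± 0.12, edgeR adjusted p = 3.75e-05), and its difference from cycling PAX7 cells was 0.27 ± 0.12 (edgeR adjusted p = 0.165). CDKN1A (p21) was at 0 to 14.2 CPM in cycling MYOG cells and CDKN1C (p57) at 10.3 to 40.4 CPM, and neither passed a test against either class.

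CDKN2C (p18, an inhibitor of CDK4 and CDK6) was higher in cycling MYOG cells than in either class. It was at 13.9, 38.3, 53.1 and 47.4 CPM in cycling MYOG cells (56, 208, 226 and 30 UMIs), at 10.6, 7.94, 10.95 and 12.6 CPM in non-cycling MYOG cells and at 2.22, 5.26, 17.3 and 21.8 CPM in cycling PAX7 cells. At E13 the interval of the former (10.5 to 18.1 CPM, exact Poisson, counting error only) overlapped that of non-cycling MYOG cells (8.91 to 12.5 CPM), and in the other libraries the intervals lay apart. CDKN2C was higher by 1.496 ± 0.44 (edgeR adjusted p = 0.0233) and by 1.92 ± 0.44 (edgeR adjusted p = 0.0196), in 4 of 4 libraries each. The first call was lost without E15 (1.26, adjusted p = 0.11), E18 (1.30, adjusted p = 0.112) or E23 (1.46, adjusted p = 0.0604), and the second without E15 (1.53, adjusted p = 0.134), E18 (2.08, adjusted p = 0.069) or the barcodes with markers of other cell types (1.43, adjusted p = 0.0868), all by edgeR. After thinning, a UMI of CDKN2C was found in 4.75, 14.9, 18.3 and 25.5% of cycling MYOG cells of E13, E15, E18 and E23. It was found in 3.41 to 4.76% of non-cycling MYOG cells and in 1.08 to 8.86% of cycling PAX7 cells. In FAP barcodes, which can include MYOG cells, the share was 0.0990 to 1.12%. All were read at 4000 UMIs per barcode.

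The cyclins and kinases of G1 did not share 1 pattern. CCND3 (cyclin D3) was at 25.7, 23.4, 32.0 and 55.3 CPM in cycling MYOG cells of E13, E15, E18 and E23, at 8.87 to 17.8 CPM in non-cycling MYOG cells (1.30 ± 0.11, edgeR adjusted p = 3.04e-05) and at 27.7 to 50.0 CPM in cycling PAX7 cells (-0.09 ± 0.11, edgeR adjusted p = 0.656). CDK6, a partner of the D cyclins, lay between the classes, at 63.7 to 185 CPM in cycling MYOG cells, above the 29.8 to 72.7 CPM of non-cycling MYOG cells (0.96 ± 0.14) and below the 114 to 317 CPM of cycling PAX7 cells (-0.97 ± 0.14). GADD45G, a growth arrest gene, lay between its levels in the other classes with no overlap, at 82.1 to 122 CPM against 198 to 254 CPM (-1.45 ± 0.18) and 24.0 to 48.7 CPM (1.58 ± 0.18). RB1 differed by 0.02 ± 0.10 and 0.03 ± 0.10. Of the 21 genes of exit and G1 tested, 7 were higher and 5 lower than in non-cycling MYOG cells, and 4 were higher and 1 lower than in cycling PAX7 cells. The shares over all genes tested were 17.6% higher and 21.4% lower, and 7.43% higher and 6.73% lower.

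Neither the Notch ligands nor the Notch targets moved together in cycling MYOG cells. Notch signalling, in which ligands on neighbouring cells switch on HES and HEY genes, keeps muscle progenitors undifferentiated. DLL1, a ligand, was at 8.47, 5.90, 6.11 and 7.89 CPM in cycling MYOG cells of E13, E15, E18 and E23 (34, 32, 26 and 5 UMIs), at 4.34, 1.85, 2.19 and 3.15 CPM in non-cycling MYOG cells and at 0.371, 0.449, 0.444 and 0.192 CPM in cycling PAX7 cells (4 to 10 UMIs in each library). DLL1 was higher with no overlap by 4.18 ± 0.34 against cycling PAX7 cells (edgeR adjusted p = 0.000179) and by 1.12 ± 0.29 against non-cycling MYOG cells (edgeR adjusted p = 0.0136), the latter not called without E15 (1.02, adjusted p = 0.0759) or E18 (1.08, adjusted p = 0.0728). The ligand JAG2 was at 56.5, 60.5, 60.9 and 83.7 CPM, below the 109 to 139.9 CPM of non-cycling MYOG cells (-1.13 ± 0.22) and above the 12.4 to 35.7 CPM of cycling PAX7 cells (1.71 ± 0.23). The ligand JAG1 had the reverse order of JAG2, at 73.5, 13.8, 8.47 and 17.4 CPM in cycling MYOG cells, 33.7, 3.46, 2.63 and 8.92 CPM in non-cycling MYOG cells and 143, 75.7, 13.1 and 35.8 CPM in cycling PAX7 cells. JAG1 was higher than in non-cycling MYOG cells by 1.20 ± 0.39 (edgeR adjusted p = 0.0344) and lower than in cycling PAX7 cells (-1.37 ± 0.36, edgeR adjusted p = 0.034), in 4 of 4 libraries each. Both calls were lost without E13 (1.37, adjusted p = 0.0816, and -1.4998, adjusted p = 0.0792), E18 (1.12, adjusted p = 0.107, and -1.58, adjusted p = 0.0741) or E23 (1.33, adjusted p = 0.0646, and -1.46, adjusted p = 0.0799), all by edgeR. By edgeR the first was 0.19 (adjusted p = 0.835) among barcodes of 6000 to 15000 UMIs and 0.57 (adjusted p = 0.408) without barcodes with markers of other cell types. It was -1.44 (edgeR adjusted p = 0.216) where cycling MYOG cells above the median UMIs of non-cycling MYOG cells were left out, which kept 6 cycling MYOG cells in E23.

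HEY1, a target of Notch, was at 84.4, 39.5, 29.4 and 36.3 CPM in cycling MYOG cells and at 286, 429, 206 and 97.2 CPM in cycling PAX7 cells, with no overlap (-2.50 ± 0.34, edgeR adjusted p = 0.00185). Its level in non-cycling MYOG cells was 14.0 to 40.4 CPM (0.84 ± 0.35, edgeR adjusted p = 0.0843). HES1, another target, was at 20.2, 26.0, 42.3 and 15.8 CPM in cycling MYOG cells, at 17.3, 164, 166 and 61.9 CPM in non-cycling MYOG cells and at 22.6, 66.4, 96.4 and 19.8 CPM in cycling PAX7 cells. It was lower than in non-cycling MYOG cells (-1.92 ± 0.42, edgeR adjusted p = 0.00568), in 3 of 4 libraries and no longer past the threshold without E15 (-1.45, edgeR adjusted p = 0.0555). Its difference from cycling PAX7 cells (-0.79 ± 0.41, edgeR adjusted p = 0.236) passed the threshold only in 2 alternatives, without E13 (-1.10, edgeR adjusted p = 0.014) and without cycling MYOG cells of higher UMIs (-2.04, edgeR adjusted p = 0.00705). FGFR4, a growth factor receptor of myoblasts, was at 106, 392, 255 and 82.1 CPM in cycling MYOG cells, at 43.0 to 111 CPM in non-cycling MYOG cells (1.21 ± 0.19, edgeR adjusted p = 0.000931) and at 128 to 338 CPM in cycling PAX7 cells (-0.09 ± 0.18, edgeR adjusted p = 0.79). Of the 17 satellite cell and Notch genes tested, 5 were higher and 6 lower than in non-cycling MYOG cells, and 5 were higher and 3 lower than in cycling PAX7 cells. The shares over all genes tested were 17.6% higher and 21.4% lower, and 7.43% higher and 6.73% lower.

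**Figure D4:**
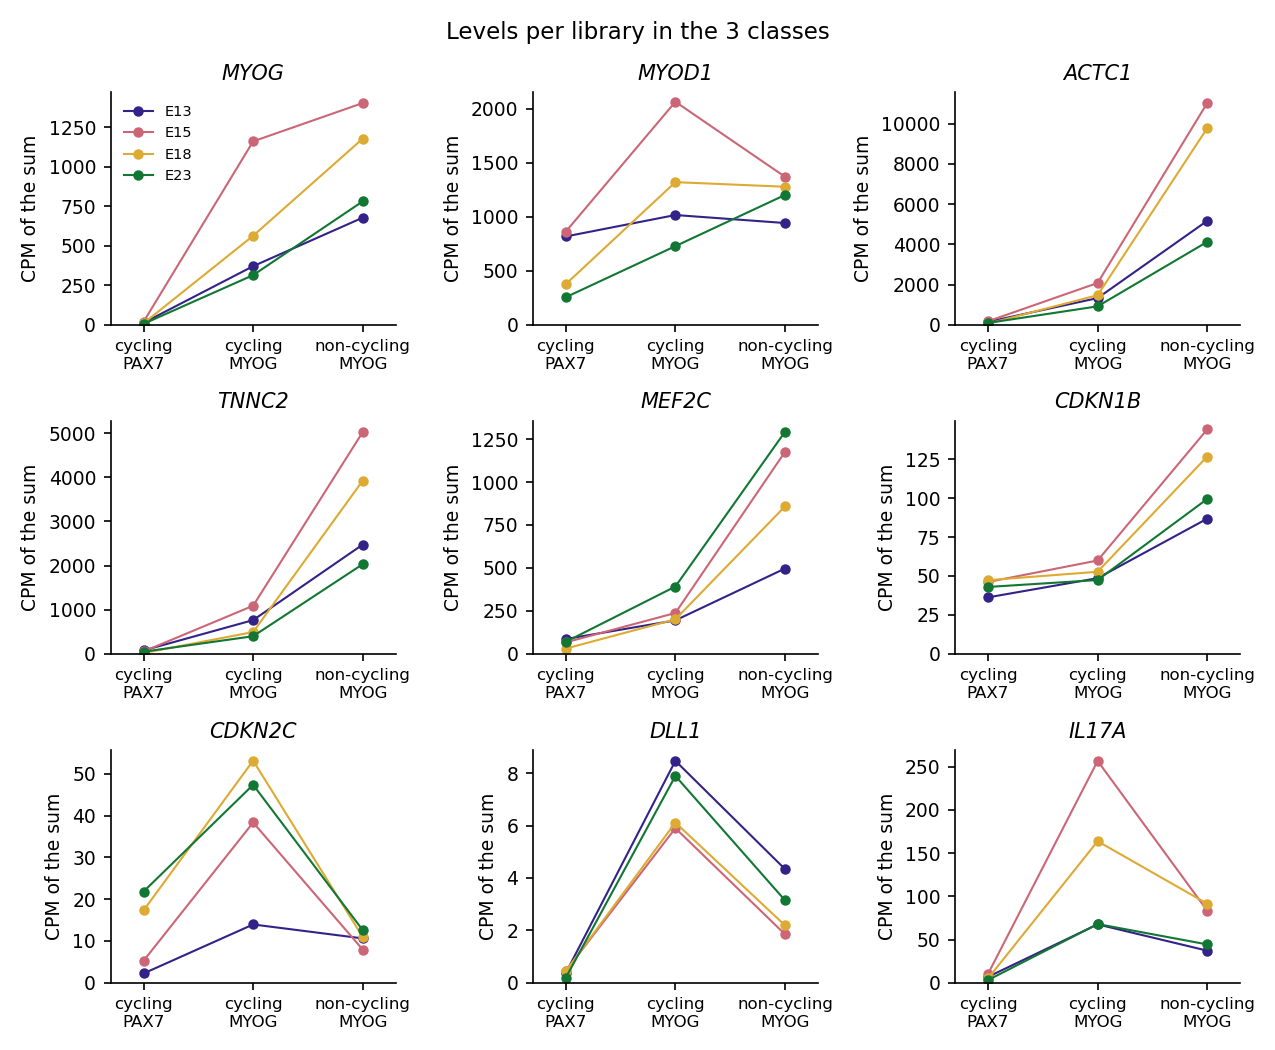
CPM of the class sum (linear axes from 0) of 9 genes in cycling PAX7, cycling MYOG and non-cycling MYOG cells, with a line for each library. ACTC1, TNNC2 and MEF2C rise from left to right in every library, whereas CDKN2C, DLL1 and IL17A are highest in cycling MYOG cells in every library (DLL1 at 5.90 to 8.47 CPM).

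Beyond the lists, the genes furthest above cycling PAX7 cells began with IL17A, the gene annotated as the cytokine interleukin 17A. It was at 67.5, 256, 164 and 67.9 CPM in cycling MYOG cells of E13, E15, E18 and E23, at 37.1, 83.4, 91.4 and 44.3 CPM in non-cycling MYOG cells and at 6.85, 10.3, 5.06 and 3.15 CPM in cycling PAX7 cells. The differences were 4.38 ± 0.30 from cycling PAX7 cells (edgeR adjusted p = 8.60e-05) and 0.82 ± 0.26 from non-cycling MYOG cells (edgeR adjusted p = 0.0326; not called without E15, 0.60, adjusted p = 0.195, or E18, 0.89, adjusted p = 0.0554). IL17A was higher than in either class in 4 of 4 libraries.

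Other genes of that end were TRIM55 (a sarcomere-associated ligase, 4.24 ± 0.40), CRYAB (a small heat shock protein of muscle, 3.76 ± 0.15), SOX13 (a transcription factor, 3.65 ± 0.26), TRDN (triadin of the calcium release unit, 3.64 ± 0.46) and VGLL2 (a muscle cofactor of TEAD factors, 3.60 ± 0.21). SOX13 and VGLL2 did not differ past the threshold from non-cycling MYOG cells, at 114 to 245 against 113 to 345 CPM and at 35.4 to 83.3 against 36.7 to 68.1 CPM. Outside the lists, those furthest below cycling PAX7 cells were NSG2 (-4.01 ± 0.69), PNOC (-3.43 ± 0.59), LOC106048600 (-3.36 ± 0.76) and STK32B (-3.07 ± 0.47). STK32B, a kinase, was at 68.8, 25.3, 30.6 and 26.8 CPM against 188 to 416 CPM, and C1QTNF3, a secreted protein, at 809.6, 600.5, 83.5 and 197 CPM against 648 to 4832 CPM. NSG2 was no longer called without E15 (-3.50, edgeR adjusted p = 0.0594) or E18 (-3.41, edgeR adjusted p = 0.0656), and neither was LOC106048600 (-2.51, edgeR adjusted p = 0.123, and -2.64, edgeR adjusted p = 0.128).

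Outside the lists, those furthest below non-cycling MYOG cells were SMPX (-3.82 ± 0.28), MYOM1 (myomesin of the M line, -3.66 ± 0.42) and LOC106033518 (-3.60 ± 0.39). Next came RPRM (-3.58 ± 0.60), LOC125179675 (-3.57 ± 0.41) and MYOT (myotilin of the Z disc, -3.56 ± 0.36). These ranks were taken among called genes of at least 20 CPM with 1 sign in 4 libraries. SMPX, a small muscle protein, was at 2.49 to 10.6 CPM in cycling and 26.2 to 109.5 CPM in non-cycling MYOG cells. Outside the lists and under the same limits, MMP7, an extracellular protease, was among the 10 genes furthest above non-cycling MYOG cells (5.36 ± 0.90). Its values were uneven, at 5.48, 0.737, 20.2 and 167 CPM against at most 1.57 CPM. MMP7 turned to -5.31 (edgeR adjusted p = 0.511) where cycling MYOG cells above the median UMIs of non-cycling MYOG cells were left out, a setting that kept 6 cycling MYOG cells in E23.

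All 12 FAP markers tested were higher in cycling than in non-cycling MYOG cells (median 2.17), with DCN at 2.23 ± 0.32 and COL1A1 at 2.56 ± 0.25. Without barcodes with markers of other cell types, a set that includes DCN and COL6A3 by choice, 3 were called, and 1 was among barcodes of 6000 to 15000 UMIs and 0 where cycling MYOG cells above the median UMIs of non-cycling MYOG cells were left out, and in the latter COL1A1 was lower (-1.91, edgeR adjusted p = 0.00298). In E23 that last setting kept 6 cycling MYOG cells. Against cycling PAX7 cells 2 of the 12 were higher and 1 lower, beside 7.43% and 6.73% over all genes tested.

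Cycling MYOG cells also varied among themselves with ACTC1. The cells of each library were ordered by ACTC1 UMIs, with ties ordered by total UMIs, and cut into a lower and an upper part of equal number. The middle cell was left out where the number was odd. CDKN1B was at 30.7 CPM in the lower and 64.5 CPM in the upper part in E13, at 50.6 and 68.3 CPM in E15, at 36.4 and 66.0 CPM in E18, and at 56.2 and 42.5 CPM in E23, where each part held 26 cells. ID3 went the other way, at 399 and 273 CPM in E13, 589.5 and 426 CPM in E15, 652 and 465 CPM in E18 and 547 and 535 CPM in E23. The mean number of the 6 genes detected was 4.62 and 4.52 in E13, 4.83 and 4.80 in E15, 4.96 and 5.03 in E18 and 4.54 and 4.42 in E23. TOP2A, a gene of the rule, was at 527 and 398 CPM in E13, 671 and 623 CPM in E15, 572 and 481 CPM in E18 and 592 and 371 CPM in E23, lower in the upper part of each library. The upper part also held more UMIs per cell, with medians of 10145 and 11683 in E13, 9615 and 10550 in E15, 10200 and 12501 in E18 and 7733.5 and 11428.5 in E23. Ordering by unscaled ACTC1 UMIs, and ties by total UMIs, itself favours this difference. CDKN1B was thus higher in the upper part in 3 of 4 libraries, and ID3 was lower in E13, E15 and E18 and about level in E23.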

How the data were processed

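The authors made the deposited matrices of raw UMI counts per gene and barcode with Cell Ranger (3' chemistry; version 7.1.0 in the methods and processing notes, 9.0.0 in the file headers) from barcodes called as cells. Barcodes with 300 to 6500 genes and 1000 to 50000 UMIs were kept, as in the study; none exceeded its 20% mitochondrial limit (13 genes). Doublets were not removed from the main comparisons: they were read from UMI numbers, and scrublet scores (scanpy 1.11.5; highest scores up to 0.8% per 1000 barcodes) served an alternative. Stages follow the age given in the labels, since every title also carries day 13 outside its brackets. The members and the gene lists were chosen with earlier results of these data known.

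Counts of 25133 gene symbols were summed over the barcodes of a class and library (4 libraries, 3 classes) and tested with edgeR 4.0.16 (quasi-likelihood, TMM, filterByExpr, library as block; R 4.3.3), and in an alternative with DESeq2 1.42.0; calls are at an adjusted p of 0.05. The library is a block because its classes come from the same pool of embryos; the deviations of its classes from the class means correlated across genes at 0.385 to 0.566. P-values measure how the class differences vary between these 4 libraries, which differ in stage, with 1 estimate of spread for the 3 classes. Differences that the classes of a library share are taken up by the block. The fit was tested on simulated data. Beyond the lists, the text names from the 10 highest and 10 lowest differences among called genes of at least 20 CPM with 1 sign in 4 libraries. Class sums of cycling MYOG cells held 4014326, 5423985, 4252409 and 633389 UMIs at E13, E15, E18 and E23. Shares carry 95% exact (Clopper-Pearson) intervals, which cover counting error only. Thinning to 4000 UMIs used numpy 2.4.6 (seed 1) and left out 25 cycling MYOG, 474 non-cycling MYOG and 20 cycling PAX7 cells. All 25487 feature names match the symbols of a RefSeq goose assembly other than the one named in the methods, so no coordinates or sequences are given. Genes that share reads with near-identical copies cannot be told apart in these counts.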

Additional observations from a re-analysis of the deposited data

Results flagged for a closer look

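Outside the comparisons, 25 of the 310 barcodes over the upper limits on genes or UMIs met the gene rule for cycling MYOG cells. These were 3 of 50 in E13, 9 of 81 in E15, 13 of 103 in E18 and 0 of 76 in E23. Among the barcodes kept the share was 2.35% (1165 of 49503). Barcodes with more UMIs meet limits of detection more easily, and those over the upper limits were given no doublet score.

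COL1A2, a fibrillar collagen and FAP marker, differed between libraries in the direction of its difference from cycling PAX7 cells, at 0.52 (log2) in E23 and -0.53 in E15; this difference between libraries was not tested.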

How the results depend on the processing

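Counts of genes higher and lower than in non-cycling MYOG cells stood at 1027 and 889 without the library as a block, at 858 and 1770 where cycling MYOG cells above the median UMIs of non-cycling MYOG cells were left out (286 of the 1165 stayed), at 3492 and 1719 without TMM (which moved the median of all genes by 0.20), and at 1618 and 1775 after thinning to 4000 UMIs. Leaving out 1 library gave 1535 (without E18) to 2380 higher and 1671 (without E15) to 2465 lower. Against cycling PAX7 cells there were 276 higher and 77 lower without the block, 366 (without E15) to 886 higher and 248 (without E15) to 706 lower without 1 library, 469 and 249 without E18, and 1472, 1468 and 1844 lower among barcodes of 6000 to 15000 UMIs, without the highest doublet scores and without cycling MYOG cells of higher UMIs. DESeq2 gave 2516 and 2866, and 1345 and 1085.

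Without cycling MYOG cells of higher UMIs, 15 sarcomere genes were called against cycling PAX7 cells, 3 stress genes and 0 FAP markers against non-cycling MYOG cells. Stress genes lower numbered 5 without TMM, 0 without the block and 5 (without E13) to 9 without 1 library, and FAP markers higher numbered 1 among barcodes of 6000 to 15000 UMIs and 3 without barcodes with markers of other cell types.

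The share of cycling cells among all cells with MYOG (12.03%) was 11.2% after thinning, 16.9% and 9.65% with at least 2 or 4 of the 6 genes, 10.1% with no PAX7, 10.3% without the highest doublet scores and 11.4 to 12.6% without 1 library. The mean ratio of median UMIs to non-cycling MYOG cells (1.54) was 1.31 without the highest doublet scores and 1.29 without barcodes with markers of other cell types, the latter chosen after seeing the data.

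Some log2 differences turned in direction. Against non-cycling MYOG cells MYOD1 was 0.0891 after thinning, -0.42 to 0.0886 (without E23) where 1 library was left out and 0.16 without the highest doublet scores. Among barcodes of 6000 to 15000 UMIs MYF5 was 0.15, MYOD1 0.30 and RBM24 0.14, and without barcodes with markers of other cell types MYF5 was 0.25, MYOD1 0.35, RBM24 0.15 and DCN -0.0578. Without cycling MYOG cells of higher UMIs JAG1 was -1.44, MYF5 0.22, MYOD1 0.44, RBM24 0.28, ID1 -0.21, DCN -1.21, COL1A1 -1.91 and MMP7 -5.31, and against cycling PAX7 cells TMEM182 was -0.33 and MYF5 0.00199. That setting kept 44, 167, 69 and 6 cycling MYOG cells in E13, E15, E18 and E23, so its E23 sum rests on few cells. With at least 5 of the 6 genes ID1 was -0.0559. Other than where an alternative leaves out the cells themselves, the cause was not tested.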
